A study of Mus musculus with 6 samples.

Results

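Sympathetic neurons and the chromaffin cells of the adrenal gland arise from the neural crest, and a small set of transcription factors drives them to make noradrenaline. The 8 genes followed here are the paired-like homeodomain gene Phox2a, the LIM homeodomain gene Isl1, the basic helix-loop-helix genes Hand1 and Hand2, the zinc finger genes Gata2, Gata3 and Insm1, and the T-box gene Tbx20. All 8 genes were found by symbol among 19938 genes with a probe set that names 1 gene, and each had 1 probe set.

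The values come from 6 whole-transcript arrays of N2A cells, an established mouse neuroblastoma line grown in serum. The 3 Pax6 knockdown arrays were made from cells transiently transfected with a hairpin RNA vector against Pax6, and the 3 control arrays from cells given a non-targeting vector. Each well received 1.5 µg of vector, and the study's methods have RNA taken up to 3 days later. Per the study's methods the hairpins were driven by a U6 promoter in a plasmid that also expresses GFP, so every group was transfected. No selection of transfected cells was described for these samples, and 1 line stands for the whole lineage. PAX6 is a paired-box transcription factor of eye, forebrain and pancreas, and the comparison asks which transcripts respond when it is reduced. Values are log2 summaries made by robust multi-array average (RMA), so a difference of 1 is a doubling. Bulk RNA cannot separate fewer expressing cells from less RNA per cell.

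In mouse embryos, PHOX2A activates the gene for dopamine beta-hydroxylase, the enzyme that turns dopamine into noradrenaline. HAND2 and GATA3 are required there for the noradrenergic enzymes, and ISL1 for the growth and maturation of sympathetic neuroblasts. In human neuroblastoma, several of these factors sit at strong enhancers and bind near one another's genes, an arrangement called a core regulatory circuit. TBX20 is best known from heart and cranial motor neuron development, and INSM1 from neuroendocrine differentiation.

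Pax6, the targeted gene, was lower in the knockdown. Its log2 values were 8.48, 8.30 and 8.50 in the knockdown arrays (replicates 1 to 3), against 8.79, 8.82 and 8.81 in the control arrays. The groups did not overlap, and the difference was -0.38 (SE 0.071, limma adjusted p = 0.0382), a signal 23.2% lower. This passed a false discovery rate (FDR) of 10%, and leaving out any 1 control array, or knockdown replicate 3, ended the call (highest adjusted p 0.180). By Western blot, the study reported a larger reduction of PAX6 protein with its Pax6 hairpin vector. That is a measure of protein, while the array signal is one of RNA.

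All 8 factors lay above the array's own median on all 6 arrays, as did 54.6% of all 19938 genes. Of 20 measured genes of noradrenergic products, 18 passed the low-value filter, beside 57.3% of all genes. For markers of other crest and non-crest cells the background is the 40.6% of all genes that stayed at or below the median on every array. Among these markers, 5 of 8 glial genes, 5 of 11 mesenchymal neuroblastoma genes and 3 of 7 heart muscle genes stayed there, the mesenchymal and heart shares being close to that background. Likewise 2 of 6 adrenal chromaffin genes, including Pnmt, which makes adrenaline, 3 of 6 cholinergic and motor neuron genes and 3 of 4 blood genes did. The mesenchymal gene Vim was high, at 14.2 in both groups, and the heart gene Nkx2-5 averaged 10.05 in the knockdown and 10.00 in the control. By limma, 0 of the tested glial (3), mesenchymal (6), cholinergic (2), heart (3) and blood (1) genes passed 10% FDR. Over all tested genes 3.88% fell and 2.79% rose, so 0 calls among so few markers is near the background. At an unadjusted p under 0.05 there was 1 marker, the heart gene Tnnt2 (-0.29, SE 0.088, adjusted p = 0.133). It passed with the replicate block (adjusted p = 0.0462), where 8.91% of all tested genes were lower. The lowest p-values of the other lists were those of Erbb3 (0.12) and Sox10 (-0.03) in glia, Fosl2 (0.12) and Wwtr1 (0.10) among mesenchymal genes, Slc18a3 (-0.08) and Lhx4 (-0.05) among cholinergic genes and Tal1 (0.12) in blood, with adjusted p from 0.294 to 0.905. Mean levels per array overlapped between groups: 6.92 to 7.01 for glial genes in the knockdown against 6.90 to 6.99 in the control, and 8.93 to 8.97 for mesenchymal genes in the knockdown against 8.92 to 8.98 in the control.

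Knockdown arrays were compared with control arrays by limma over 11424 genes. Of the 8 factors, Isl1 and Tbx20 fell at 10% FDR, 0 rose and 6 did not pass. At an unadjusted p under 0.05, 3 were lower and 1 higher. Over all tested genes 3.88% fell and 2.79% rose at 10% FDR. With the replicate number as a block, which pairs the arrays of one number, Gata3 also fell and Insm1 rose, giving 3 lower and 1 higher of 8. With the block, 8.91% of tested genes were lower and 8.96% higher. The knockdown arrays lay wholly below the control arrays for 4 factors (Isl1, Tbx20, Gata3 and Hand2) and wholly above for 0. Of all tested genes, 11.7% lay wholly below and 13.9% wholly above. The factors' median difference was -0.029, beside 0.017 over all tested genes. The sign was negative for 4 factors and positive for 4. Their median absolute difference was 0.14, beside 0.086 over all tested genes.

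**Figure D1:**
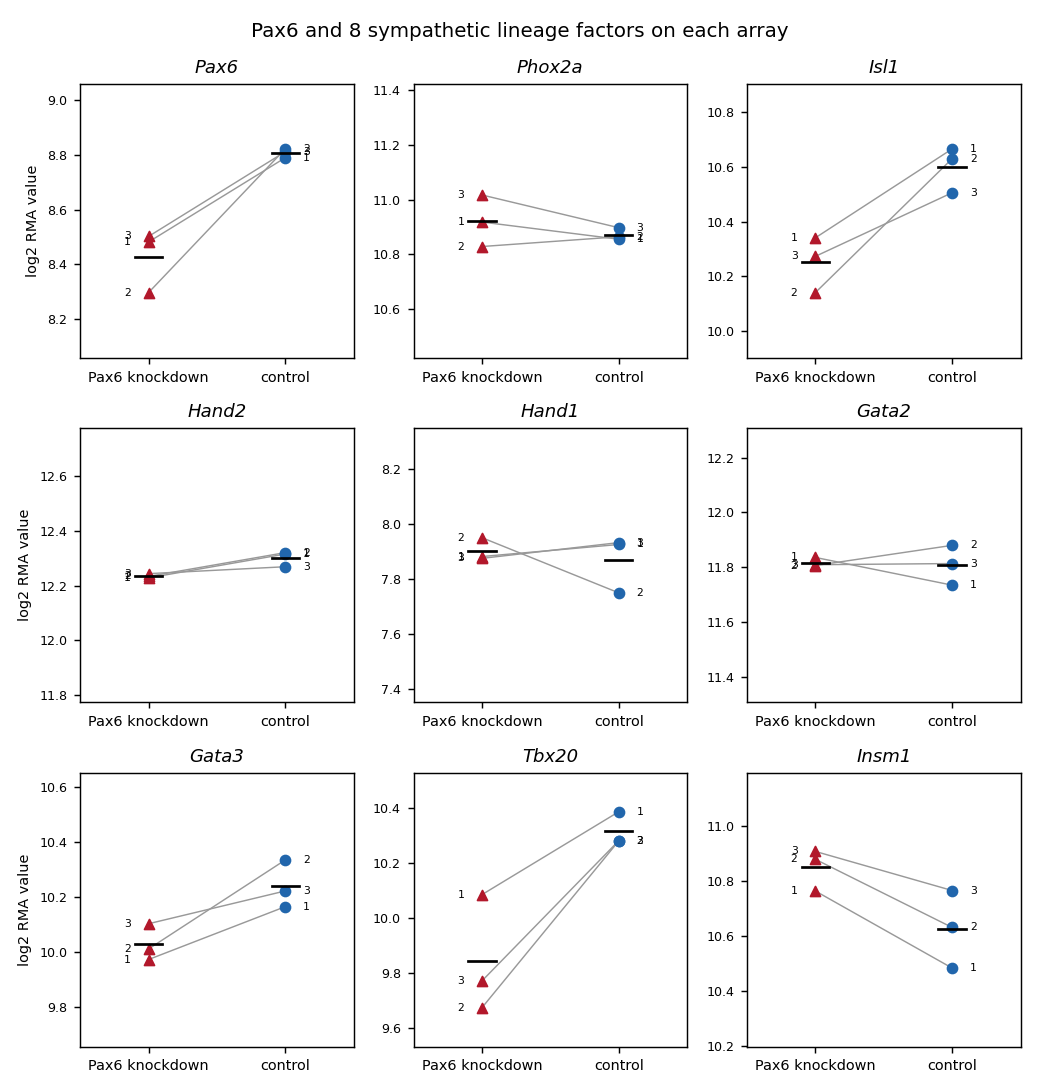
Log2 RMA value (vertical axis, each panel spans 1 log2 unit) of Pax6 and the 8 factors on the 3 Pax6 knockdown arrays (triangles) and the 3 control arrays (circles). Lines join arrays of the same replicate number, printed beside the points, and short bars are group means. The triangles of Pax6, Isl1, Tbx20, Gata3 and Hand2 all lie below the circles, while those of Phox2a, Hand1, Gata2 and Insm1 overlap with them.

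Isl1 encodes a LIM homeodomain protein that acts with LDB1 in sympathetic, sensory and motor neurons. Its log2 values were 10.34, 10.14 and 10.27 in the knockdown arrays, against 10.67, 10.63 and 10.51 in the control arrays. Every knockdown array was lower than every control array. The means were 10.25 ± 0.10 in the knockdown and 10.60 ± 0.084 in the control (SD, n = 3 each). This made a difference of -0.35 (SE 0.076, limma adjusted p = 0.0571) with a 95% confidence interval from -0.52 to -0.17, or 21.4% less signal, and 276 of the 11424 tested genes fell further. Within replicate numbers the differences were -0.32, -0.49 and -0.23. Their shared sign follows from the groups not overlapping.

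Tbx20 gave the largest difference of the 8 and also the widest spread. It read 10.09, 9.67 and 9.77 in the knockdown arrays, against 10.39, 10.28 and 10.28 in the control arrays. The groups were apart, although knockdown replicate 1 stood nearer to the control arrays than the other knockdown arrays did. The means were 9.84 ± 0.22 in the knockdown and 10.32 ± 0.061 in the control (SD, n = 3 each). They differed by -0.47 (SE 0.11, limma adjusted p = 0.0607), with a 95% confidence interval from -0.72 to -0.23, leaving 72.0% of the control signal, and 97 tested genes fell further. Its residual spread was larger than that of 82.2% of tested genes. Without knockdown replicate 1 the difference was -0.59.

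Neither call was independent of single arrays. Isl1 and Tbx20 both stayed past 10% FDR without knockdown replicate 1 or 2, and both lost it without knockdown replicate 3 or any of control replicates 1, 2 and 3. Without those 4 arrays in turn, the adjusted p of Isl1 was 0.189, 0.171, 0.222 and 0.126, and that of Tbx20 was 0.226, 0.181, 0.201 and 0.169, while the differences stayed between -0.32 and -0.40 for Isl1 and between -0.44 and -0.49 for Tbx20. Calls were lost over all genes too: those 4 fits called 56, 185, 51 and 159 of the tested genes, against 762 in the reported fit. With no filter on low values both factors also missed 10% FDR (0.133 for each).

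**Figure D2:**
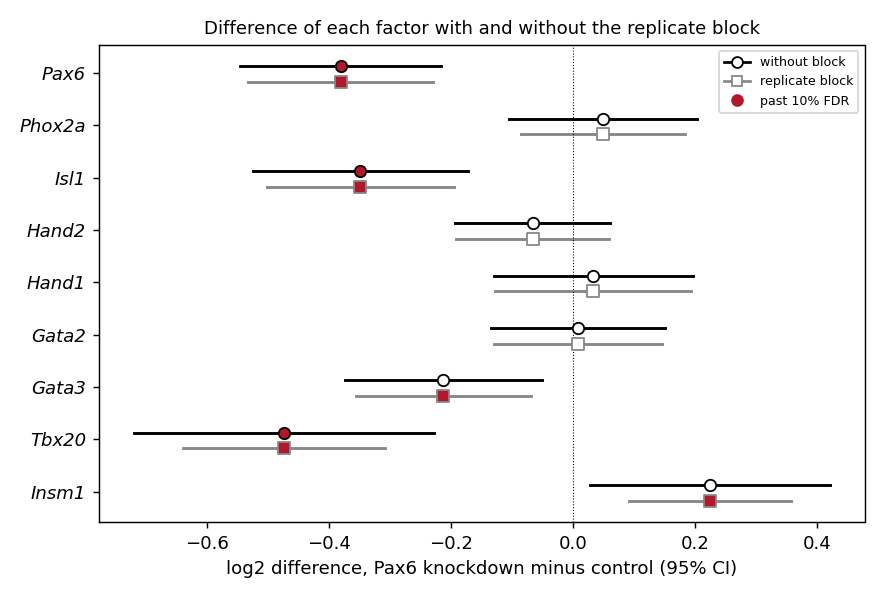
Log2 difference, Pax6 knockdown minus control (horizontal axis), with its 95% confidence interval, for Pax6 and the 8 factors (vertical axis), from limma without a block (circles, black) and with the replicate number as a block (squares, grey). Filled symbols passed 10% FDR: Isl1 and Tbx20 in both fits, Gata3 (-0.21) and Insm1 (0.22) only with the block.

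The sequences around the starts of the genes that fell are shown because their products and partners belong to DNA-binding families with short recognition cores. Each window runs from 250 bases before to 50 bases after the RefSeq start in build GRCm38.p6, in the direction of the gene. Capitals mark the homeodomain core TAAT, bound by proteins of the PHOX2A and ISL1 type, and the GATA core GATA, on either strand, with overlapping matches run together.
Isl1: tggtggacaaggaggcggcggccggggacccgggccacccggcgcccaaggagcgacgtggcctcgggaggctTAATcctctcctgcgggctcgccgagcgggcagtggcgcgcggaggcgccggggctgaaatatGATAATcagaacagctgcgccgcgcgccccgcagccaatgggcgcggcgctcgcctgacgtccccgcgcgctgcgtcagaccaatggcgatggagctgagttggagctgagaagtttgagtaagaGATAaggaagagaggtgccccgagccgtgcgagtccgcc
Tbx20: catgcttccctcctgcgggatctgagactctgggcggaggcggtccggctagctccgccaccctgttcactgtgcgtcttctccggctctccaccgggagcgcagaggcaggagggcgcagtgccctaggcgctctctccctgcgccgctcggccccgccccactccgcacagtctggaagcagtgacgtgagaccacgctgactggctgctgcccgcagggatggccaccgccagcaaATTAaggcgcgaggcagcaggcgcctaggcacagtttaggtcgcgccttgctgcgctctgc

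The Isl1 window lies at chr13:116309639-116309938 on the minus strand and the Tbx20 window at chr9:24774254-24774553 on the minus strand. The Isl1 window holds 2 homeodomain cores, at 177 and 112 bases before the start, and 2 GATA cores. One GATA core, 114 bases before the start, overlaps with the second homeodomain core, and an E-box (CANNTG, the core of helix-loop-helix proteins such as HAND2) begins 103 bases before the start. The Tbx20 window holds 1 homeodomain core, 11 bases before the start, and neither a GATA core nor an E-box. These letters are common: of all 32851 promoter windows of this length, 58.0% hold TAAT, 57.9% GATA and 72.3% CANNTG on either strand. Both windows are rich in G and C, at 69.0% for Isl1 and 68.3% for Tbx20, beside a median of 52.7% over all windows. Factors that were not called shared this, at 71.3% for Phox2a, 67.3% for Gata3, and 69.3% and 73.7% for the windows of Gata2.

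Gata3 and Gata2 encode zinc finger factors with near-identical recognition of GATA. Gata3 read 9.97, 10.01 and 10.10 in the knockdown arrays, against 10.16, 10.33 and 10.22 in the control arrays. All knockdown arrays were below all control arrays, by a small margin. The difference of -0.21 (SE 0.070) had a 95% confidence interval from -0.37 to -0.05. It missed 10% FDR by limma (adjusted p = 0.150) and passed with the replicate block (adjusted p = 0.0703). The signal was 13.7% lower. Within replicate numbers the log2 difference was -0.19, -0.32 and -0.12. Gata2 read 11.84, 11.81 and 11.81 in the knockdown arrays, against 11.74, 11.88 and 11.81 in the control arrays. The groups overlapped, and they differed by 0.01 (SE 0.062, limma adjusted p = 0.966, 95% confidence interval from -0.13 to 0.15), with a sign that turned negative without knockdown replicate 1, without control replicate 1 and with array weights.

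The change of Gata3 relative to Gata2 was set out within each array, a comparison chosen after the values were seen. Log2 Gata3 minus log2 Gata2, whose size depends on the probes, was -1.86, -1.80 and -1.71 in the knockdown arrays and -1.57, -1.55 and -1.59 in the control arrays. Its mean differed by -0.22, with all knockdown arrays below all control arrays. Since the pair was picked for its values, this is a description and no p-value is given.

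The Gata3 window, at chr2:9878551-9878850 on the minus strand, is shown beside that of Hand2, at chr8:57320733-57321032 on the plus strand, because these are the other factors whose knockdown arrays lay wholly below the control arrays. The start in the Gata3 entry lies 9.35 kb inside the gene's RefSeq span, so its window is not at the outermost start of the gene, while those of Isl1, Tbx20 and Hand2 are. Capitals are as above.
Gata3: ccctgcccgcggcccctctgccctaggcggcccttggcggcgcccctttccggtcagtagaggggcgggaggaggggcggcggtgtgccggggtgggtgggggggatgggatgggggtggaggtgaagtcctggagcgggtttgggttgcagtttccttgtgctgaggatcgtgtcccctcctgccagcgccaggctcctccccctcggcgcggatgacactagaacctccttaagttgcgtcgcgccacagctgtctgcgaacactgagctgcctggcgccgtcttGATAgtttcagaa
Hand2: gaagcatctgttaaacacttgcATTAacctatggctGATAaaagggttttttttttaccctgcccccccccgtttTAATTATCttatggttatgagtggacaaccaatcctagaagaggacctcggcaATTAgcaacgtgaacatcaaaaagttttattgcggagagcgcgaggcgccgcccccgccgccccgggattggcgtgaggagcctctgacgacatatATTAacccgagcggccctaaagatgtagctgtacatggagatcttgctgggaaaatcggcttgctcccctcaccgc

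Gata3 holds no homeodomain core in this window, 1 GATA core 37 bases after the start and 1 E-box. Hand2 holds 5 homeodomain cores, 2 GATA cores and 2 E-boxes, and at 50.3% G and C it is close to the median of all windows. Of the 6 factors with an entry in the promoter table, 3 held a homeodomain core, 4 a GATA core and 5 an E-box. The longer PHOX2-type palindrome (TAAT and AATTA set 2 bases apart), the PAX6 paired-domain core TTCACGC and the TATA box TATAAA were in 0 of the 6, against 0.265%, 1.26% and 13.6% of all windows. The T-box core GGTGTGA was in 1, Gata2, against 3.98%. Hand1 and Insm1 had no entry there.

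Hand2, which in mouse is required for noradrenergic differentiation of sympathetic neurons, was the steadiest of the 8. It read 12.23, 12.23 and 12.24 in the knockdown arrays, against 12.32, 12.32 and 12.27 in the control arrays. The groups did not overlap, yet they differed by only -0.07 (SE 0.055, limma adjusted p = 0.596, 95% confidence interval from -0.19 to 0.06), or 4.49% less signal. Only 0.884% of tested genes had a smaller residual spread, and limma's moderated variance, drawn toward that of other genes, gave a standard error above that residual spread. Hand1, its close relative, read 7.88, 7.95 and 7.88 in the knockdown arrays, against 7.93, 7.75 and 7.93 in the control arrays. The groups overlapped at a level near the array median, where RMA compresses differences. They differed by 0.03 (SE 0.071, limma adjusted p = 0.866, 95% confidence interval from -0.13 to 0.20), and by -0.03 without control replicate 2, the lowest control array.

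Phox2a was not detectably different. It read 10.92, 10.83 and 11.02 in the knockdown arrays, against 10.86, 10.86 and 10.90 in the control arrays. The groups overlapped, and knockdown replicates 2 and 3 were the lowest and the highest of the 6 arrays. The knockdown minus control difference was 0.05 (SE 0.067, limma adjusted p = 0.779), with a 95% confidence interval from -0.11 to 0.20. With array weights it was 0.12 and passed (adjusted p = 0.0877), the one setting of 14 in which it did.

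Insm1 was the factor with the largest nominal rise. INSM1 is a zinc finger repressor of neuroendocrine and neuronal progenitors, and in mouse it is needed for sympathoadrenal cells to proliferate and differentiate. It read 10.76, 10.88 and 10.91 in the knockdown arrays, against 10.48, 10.63 and 10.77 in the control arrays. The groups overlapped, with knockdown replicate 1 just below control replicate 3. Within replicate numbers the knockdown array was higher each time, by 0.28, 0.25 and 0.14. On average it was higher by 0.22 (SE 0.085, 95% confidence interval from 0.03 to 0.42), a signal 16.8% higher. It missed 10% FDR by limma (adjusted p = 0.205), and passed with the replicate block (SE 0.057, adjusted p = 0.04996) and with array weights (adjusted p = 0.0318).

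Isl1 and Insm1 had differences of opposite sign. Log2 Isl1 minus log2 Insm1 within an array was -0.42, -0.74 and -0.63 in the knockdown arrays, against 0.18, -0.001 and -0.26 in the control arrays, without overlap. The mean differed by -0.57. These genes were set side by side for their opposite signs, so no test is given. For Hand2 minus Hand1 and Tbx20 minus Isl1, set out in the same way, the groups overlapped (mean differences -0.10 and -0.13).

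**Figure D3:**
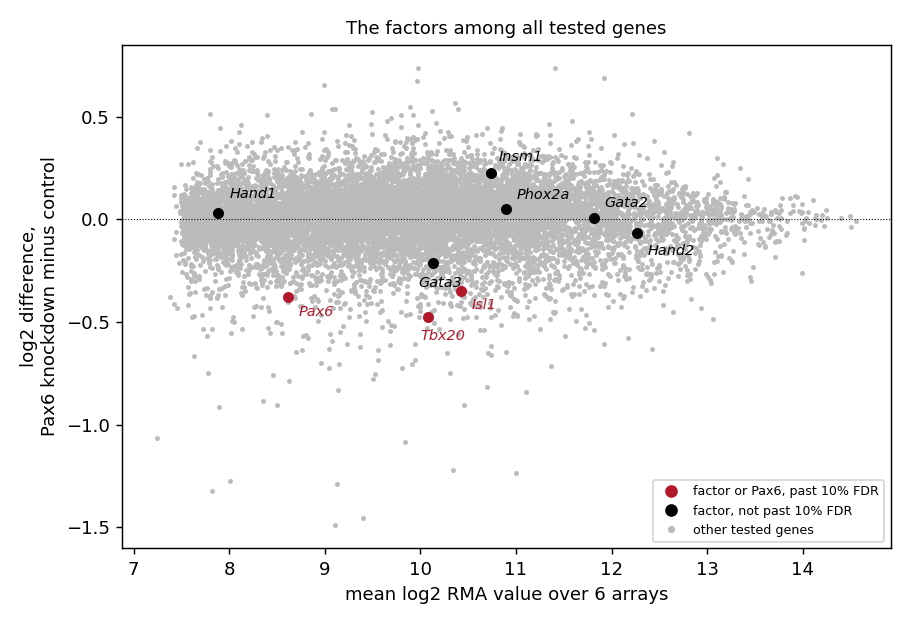
Log2 difference, Pax6 knockdown minus control (vertical axis), against the mean log2 RMA value over the 6 arrays (horizontal axis) for 11424 tested genes (grey), with Pax6 and the 8 factors marked. Isl1 (-0.35) and Tbx20 (-0.47) passed 10% FDR, while Gata2, Hand1, Phox2a and Hand2 lie within 0.07 of 0.

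Genes with the array profile most like that of a called factor were found by the root mean square (RMS) difference of the 6 values after each gene was centred on its own mean. Nearest to Isl1 were Calu, a calcium-binding protein of the endoplasmic reticulum (0.019), Tmed9, a cargo receptor between reticulum and Golgi (0.020), and Sumf1, which activates sulphatases (0.025). Their differences were -0.35, -0.38 and -0.36. Nearest to Tbx20 were the glutamate receptor subunit gene Gria2 (0.038), the lipid transfer protein gene Mttp (0.045) and the planar polarity gene Prickle2 (0.048), with differences of -0.51, -0.51 and -0.40. All 6 neighbours passed 10% FDR by limma and lost it without knockdown replicate 3 and without control replicate 1 or 2, as both factors did. Since the neighbours were picked for alike values on these same arrays, their alike differences and calls follow from the choice.

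Among other regulators of the lineage 1 gene passed. Of 26 listed, 19 were tested, 1 rose, 0 fell and 18 did not pass, with a median difference of 0.084. Over all tested genes 2.79% rose and 3.88% fell. The one that rose was Zfpm1, which encodes FOG1, a zinc finger partner that binds GATA factors. It read 11.68, 11.79 and 11.72 in the knockdown arrays, against 11.39, 11.48 and 11.55 in the control arrays, without overlap. The difference was 0.26 (SE 0.067, limma adjusted p = 0.0891), and the call was lost whichever array was left out (adjusted p from 0.108 to 0.278). With the replicate block 1 regulator was higher and 1 lower, beside 8.96% and 8.91% of all tested genes. The lower one, the homeodomain gene Meis1, named after its value was seen, read 8.76, 8.33 and 8.66 in the knockdown arrays, against 8.90, 8.86 and 8.81 in the control arrays (adjusted p = 0.0880 with the block, 0.225 without it). Neither Mycn (-0.05, SE 0.080), the oncogene of human high-risk neuroblastoma, nor Ldb1 (-0.0003, SE 0.054), the adaptor of ISL1, passed, and both are named after their values were seen.

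Paralogs of the 8 factors gave 0 calls among 9 tested of 17 listed, with a median difference of 0.031. Over all tested genes 3.88% fell and 2.79% rose, so 0 calls among 9 is near the background. The lowest p-values were those of Tbx1 (0.20, SE 0.076, limma adjusted p = 0.219) and Gata4 (0.19, SE 0.092, limma adjusted p = 0.311), and Tbx1 was the 1 paralog with an unadjusted p under 0.05. With the block both were called higher (adjusted p = 0.0685 for Tbx1 and 0.0800 for Gata4), beside 8.96% of all tested genes. Isl2, the closest relative of Isl1, had a difference of 0.08 (SE 0.10, limma adjusted p = 0.761), against the fall of 0.35 on the log2 scale in Isl1. It is named after its value was seen. Gata1, Gata5 and Gata6 did not pass the low-value filter.

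**Figure D4:**
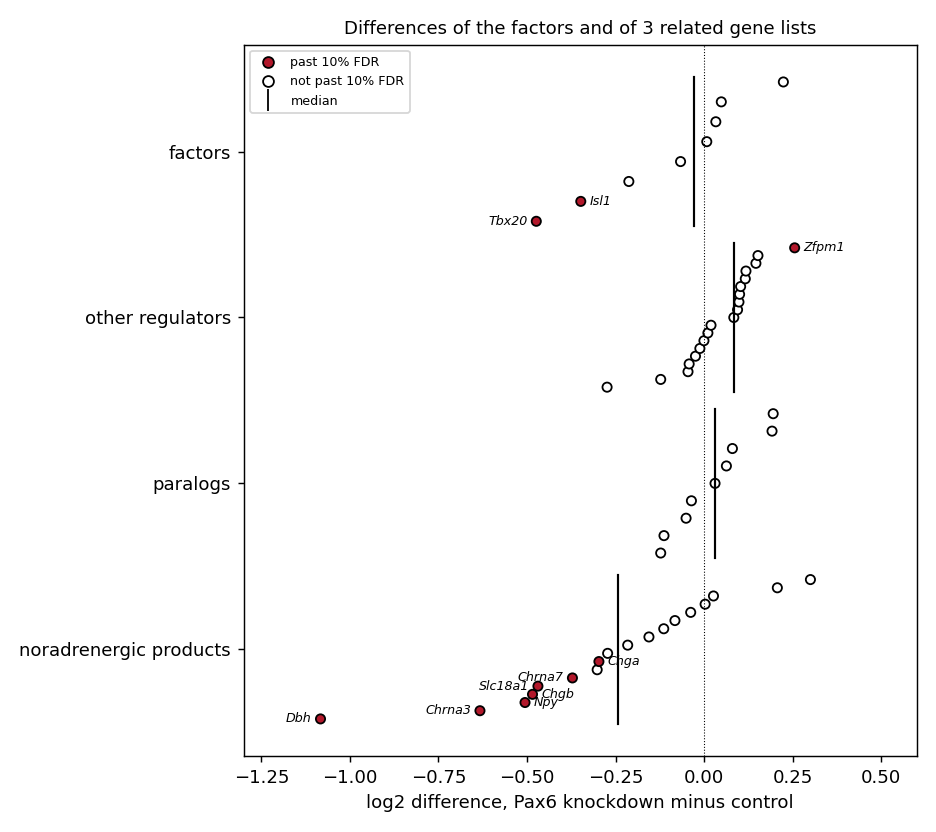
Log2 difference, Pax6 knockdown minus control (horizontal axis), of the 8 factors, 19 other regulators, 9 paralogs and 18 genes of noradrenergic products (vertical axis, 1 point per tested gene, ordered by value within a list), with filled points past 10% FDR and bars at the medians. Filled points number 2, 1, 0 and 7, and the medians are -0.029, 0.084, 0.031 and -0.24.

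Several genes for products of the noradrenergic programme fell. Of 18 tested genes, 7 fell, 0 rose and 11 did not pass, with a median difference of -0.24. Over all tested genes 3.88% fell and 2.79% rose. The falls were largest in Dbh, the target of PHOX2A (-1.08, SE 0.077), and in the nicotinic receptor subunit gene Chrna3 (-0.63, SE 0.061), followed among the named genes by Chgb, of the secretory granule (-0.48, SE 0.056), and Slc18a1, which loads monoamines into vesicles (-0.47, SE 0.071). All 4 passed in each of the 6 fits that left out 1 array, which neither Isl1 nor Tbx20 did. The fit with the block called 9 of these genes lower and 2 higher, beside 8.91% and 8.96% of all tested genes. The 2 higher, named after their values were seen, were Gch1 (0.30, adjusted p = 0.0268 with the block, 0.278 without it) and Gap43 (0.21, adjusted p = 0.0613 with the block, 0.233 without it). The adrenal chromaffin list shares Chgb, Slc18a1 and Chga (-0.30, SE 0.060) with the noradrenergic list and gave 3 falls among 4 tested. Chga passed in only 2 of the 6 fits that left out 1 array (adjusted p up to 0.202), being lost without knockdown replicate 3 or control replicate 1, 2 or 3, which takes the count to 2. The mean level of the list per array was 9.03 to 9.08 in the knockdown, against 9.25 to 9.29 in the control, with Pnmt and Penk at or below the median on every array, and the part of such cells in the falls of Isl1 and Tbx20 was not tested. In the neuroblast list, Dbh was the 1 call among 5 tested, and Gata3 joined it with the block. Those tested genes were all counted above: Phox2a, Hand2 and Gata3 among the factors, Th and Dbh among the noradrenergic products. Th, which makes the precursor of dopamine and depends on GATA3 and HAND2 in mouse, had a difference of -0.22 (SE 0.10, limma adjusted p = 0.318) and is named after its value was seen. The lists were drawn with earlier results known, so these counts describe the list and were not tested.

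**Figure D5:**
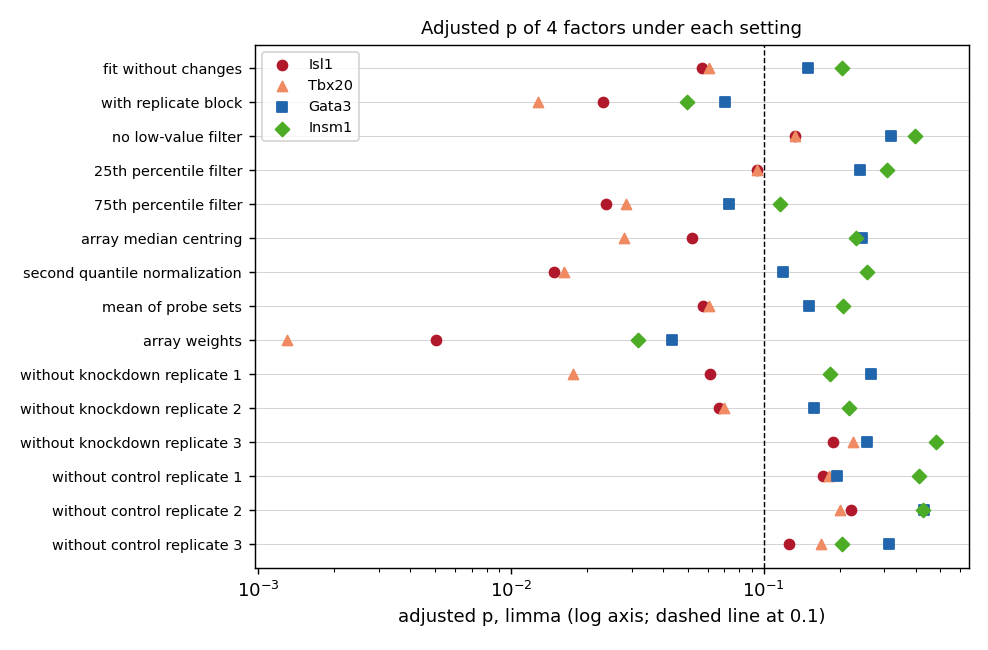
Adjusted p of Isl1, Tbx20, Gata3 and Insm1 (horizontal axis, log scale, dashed line at 0.1) in the fit without changes and under each of 14 alternatives (vertical axis). Isl1 and Tbx20 lie left of the line in 9 of the 14, Gata3 in 3 and Insm1 in 2.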

How the data were processed

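The 3 Pax6 knockdown and 3 control arrays (Mouse Gene 1.0 ST, 200 ng RNA each) were grouped by their titles. They are described as biological replicates. The table deposited holds 1 log2 value for each probe set on each array. To make it, the authors ran RMA, with its background step and quantile scaling, and their own limma test followed a filter on low genes. Their tool versions and annotation build are not given in the sources used here. Scaling all arrays to 1 distribution hides a change in total RNA.

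The table held 35556 probe sets, with array medians of 7.49 to 7.59 and correlations between arrays of 0.987 to 0.997. On any 2 arrays at most 20 values were identical. Genes were named through the platform annotation: 21789 probe sets had 1 symbol, 1621 several and 12146 none. The identifiers of 21698 of the 1-symbol probe sets were in the RefSeq gene table, with 0 differing symbols. Only 1-symbol probe sets were used, and the one with the highest mean over 6 arrays stood for a gene. Genes above the array's own median on at least 3 arrays were tested by limma 3.58.1 in R 4.3.3 (lmFit, eBayes, two-sided, Benjamini-Hochberg over all 11424 tested genes, 10% FDR), tested beforehand on simulated data. Differences are knockdown minus control.

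The members and lists were chosen with earlier results of these data known. Named were the 8 factors, Pax6, up to 4 members of each list past 10% FDR with the lowest adjusted p (where none passed, at most 2, by lowest p) and the 3 genes nearest in profile to each called factor. Deviations from the group means correlated within replicate numbers, at 0.57, 0.32 and 0.23 for numbers 1, 2 and 3. Since each is over 0.1, arrays of 1 number were treated as pairs in the fit with the replicate block and in the differences within replicate numbers. The reported fit had no block and did not use the pairing. What a number marks is not stated in the labels, and knockdown replicate 2 with control replicate 3 reached 0.18. Alternatives were the replicate block, other low-value filters, array centring, a second quantile normalization, the mean of probe sets, array weights and each array left out. Promoter windows came from RefSeq (GRCm38.p6), where 6 of 8 factors had an entry.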

Additional observations from a re-analysis of the deposited data

How the results depend on the processing

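Of the 8 factors, 2 changed in the reported fit. The count was 4 with the replicate block, 5 with array weights, 0 with no low-value filter, and between 0 and 2 when 1 array was left out. Without a filter more genes enter the adjustment. Of 11424 tested genes, 762 changed in the reported fit, 2042 with the replicate block, 1383 after a second quantile normalization and 4239 with array weights. When 1 array was left out, 51 to 1285 of the same 11424 changed. With no filter 245 of 19938 tested genes changed, and with the 25th percentile filter 389 of 16402. The 75th percentile filter gave 1046 changed genes of 5982 tested and 3 changed factors of 7 tested, Gata3 being the added one, and dropped Hand1. The settings that called more than 2 factors also called more genes than the reported fit did. The split also moved: 517 genes were lower and 529 higher with the 75th percentile filter, 1600 lower and 2639 higher with array weights, 177 lower and 68 higher with no filter, and 465 lower and 820 higher without knockdown replicate 2. Array weights reached no full convergence in limma.

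Signs held under all alternatives for Phox2a, Hand2, Gata3, Isl1, Tbx20 and Insm1. Gata2 was -0.0144 with array weights and ran from -0.0296 (without control replicate 1) to 0.0430 (without control replicate 2) when 1 array was left out, being also negative without knockdown replicate 1 (-0.0016). Hand1 ran from -0.0266 (without control replicate 2) to 0.0649 (without control replicate 3). Adjusted p ranged from 0.00507 to 0.222 for Isl1, 0.00130 to 0.226 for Tbx20, 0.0435 to 0.432 for Gata3 and 0.0318 to 0.481 for Insm1. The block changed no call of a factor other than those of Gata3 and Insm1. The causes were not tested. With 3 arrays a group, the intervals of Phox2a, Hand1, Hand2 and Gata2 still allow differences of up to about 0.20 on the log2 scale.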
